A study of Ovis aries with 57 samples.

Results

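Genes that copy DNA and divide cells were measured in the uterine lining and the conceptus of sheep in early pregnancy. They were taken from a list of 42 symbols, chosen by function, and 39 of them matched a row among the 25174 features with an identifier in the tables. MCM2, CCNB1 and CDK1 matched no row by symbol and are not analysed here under those names. A row named CDC2, which the tables describe as cyclin-dependent kinase 1, is given beside the members and is counted with none of them. The members were split by role into 9 genes that license replication origins, 6 that work at the replication fork, 3 that make nucleotides, 4 cyclins, 8 genes of mitotic control and 9 of the spindle and the mitotic chromosome.

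RNA was sequenced from the luminal epithelium (LE), which lines the uterine cavity, from the glandular epithelium (GE) and from the conceptus, that is the embryo and the membranes around it. The epithelia were cut by laser from stained frozen sections of the pregnant horn of 5 stages of pregnancy (days 10, 12, 14, 16 and 20), each tissue giving 4 libraries at each stage, and conceptuses came from day 12 (n = 5) and from days 14, 16 and 20 (n = 4 each). All animals were pregnant Ovis aries, and the labels name no treatment, allele, breed or age. RNA of every LE, GE and day 12 conceptus library was amplified with single primer isothermal amplification (SPIA), and RNA of later conceptuses was not. Libraries are called here by the numbers in their labels. The LE and GE libraries of day 14, and no others, carry a B before the number. The labels do not say what it stands for, and it cannot be told apart from day 14.

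In eukaryotic cells the origin recognition complex (ORC1, ORC6 and others) works with CDC6 and CDT1 to load the MCM helicase onto DNA before S phase. Replication then runs with GINS, the sliding clamp PCNA, its loader RFC and DNA polymerase alpha, fed with deoxynucleotides by ribonucleotide reductase (RRM1 and RRM2) and thymidylate synthase (TYMS). Cyclins E and A drive S phase, cyclins A and B entry into mitosis, and the Aurora and Polo kinases, the BUB1 and TTK checkpoint, CDC20 and the kinesins carry cells through division. Most of these transcripts are low in resting cells and high in cycling ones. In ruminants the trophectoderm of the conceptus multiplies while it elongates along the uterine lumen, before it attaches to the LE.

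Each LE library held 8.04 to 26.01 M (mega) mapped reads, of which 1.93 to 7.58 M lay in exons. For GE these ranges were 7.86 to 22.32 M and 1.76 to 6.37 M, and for the conceptus 14.62 to 27.38 M and 4.89 to 14.62 M. LE libraries of day 14 listed 4528 to 5997 features at 1 or more reads per kilobase of exon per M mapped reads (RPKM), against 6247 to 8741 in the other LE libraries. The labels were set against tissue markers: 10 luminal markers, LGALS15 among them, summed to 18.3 to 43276 RPKM in LE outside day 20 and to 2.12 to 139 in GE. The 12 gland markers measured summed to 193 to 6328 RPKM in those LE libraries and to 702 to 14019.7 in GE, so these sums overlapped. All are bulk samples, in which fewer cells of a type and less RNA per cell cannot be told apart. Nothing in the labels says whether libraries of a group came from separate animals, and the p-values measure the spread between libraries.

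The members were low in both epithelia and high in the conceptus. Summed over the 39 members, per kilobase per M exon reads, the level was 1454 to 2712 in the 17 conceptus libraries (median 1913), 230.3 to 495 in the 20 GE libraries (median 389) and 30.8 to 341 in the 16 LE libraries of days 10 to 16 (median 194). The 4 LE libraries of day 20 stood at 282 (library 17), 279 (19), 1393 (21) and 894 (23). Libraries 21 and 23 lay above every other LE and GE library and below every conceptus library, while libraries 17 and 19 lay within the range of the other LE and GE libraries. Because these scales mix amplified and unamplified RNA, and the conceptus is another tissue, the levels are given as a description with no test.

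**Figure D1:**
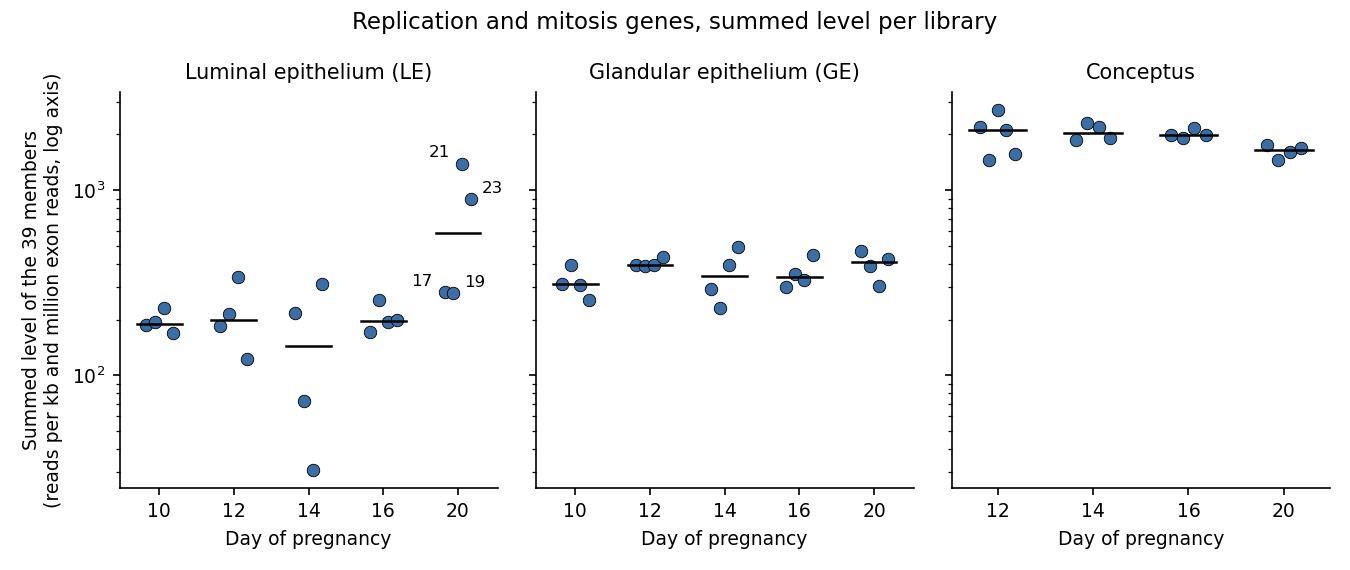
Summed level of the 39 members in each library (reads per kilobase per M exon reads, logarithmic axis) by tissue and day. Conceptus libraries lie between 1454 and 2712, GE between 230.3 and 495, LE of days 10 to 16 between 30.8 and 341, and LE day 20 libraries 21 and 23 at 1393 and 894.

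At an RPKM of 1 or more in every library stood 38 of the 39 members in the conceptus, with the licensing factor CDT1 the exception. In GE 5 members did so (RRM1, PCNA, MCM7, the mitotic kinase AURKA and GINS2), and in LE RRM1 alone. The median over libraries was under 0.1 RPKM for 18 members in LE and for 10 in GE. In LE the order by median RPKM was RRM1 (10.3), the helicase subunit MCM6 (8.34), PCNA (5.42), the clamp loader RFC4 (3.81), AURKA (2.44) and RFC3 (2.16). GE began with RRM1 (17.5), RFC4 (11.5), PCNA (8.72), MCM7 (8.3), AURKA (5.98), GINS2 (5.24), MCM6 (5.09), RFC3 (4.64) and POLA1, the catalytic subunit of polymerase alpha (4.21). Replication and nucleotide genes headed both orders, and neighbours in them overlapped widely over libraries, RRM1 ranging from 1.16 to 41.5 RPKM in LE and from 5.5 to 28.7 in GE.

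RRM2, the S phase partner of RRM1, was near 0 where RRM1 was not: its median was 0.02 RPKM in LE and 0.04 in GE, with highest values of 46.4 (LE day 20, library 21) and 0.74. MKI67, which coats mitotic chromosomes and is the common marker of cycling cells, had medians of 0.01 and 0.04 RPKM. BIRC5, a chromosomal passenger protein, was listed at 0 in 14 of 20 LE and 12 of 20 GE libraries. TYMS was listed at 0 in 11 of 20 LE libraries, and cyclin E2 (CCNE2) in 12. In the conceptus the order by median per kilobase per M exon reads was ORC1 (235), PCNA (130.2), RRM2 (124), MCM6 (75.3), cyclin A2 (CCNA2, 74.6), CDC20 (74.0), the spindle factor TPX2 (73.6), topoisomerase TOP2A (72.7), MCM7 (70.8) and RRM1 (64.2). In the RefSeq annotation of another sheep assembly (ARS-UI_Ramb_v3.0) ORC1 overlaps a long noncoding RNA, and 18 of the 39 members overlap some other gene, 9 of them a protein-coding one, so reads of such pairs may not have been told apart. Among these are AURKB with BORCS6, PLK1 with ERN2, KIF20A with CDC23 and CCNA2 with EXOSC9.

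On day 20 the 4 LE libraries fell apart into a low and a high pair. TOP2A, which untangles replicated DNA, was at 0.01 RPKM in library 17, 0.67 in library 19, 20.5 in library 21 and 22.5 in library 23. The highest of the 16 LE libraries of other days was 1.85 and the highest of all 20 GE libraries 4.14. MKI67 stood at 0.18, 0.00, 9.39 and 13.1 RPKM in the same order, against a highest value of 0.18 on other LE days and 1.31 in GE. Libraries 21 and 23 thus exceeded every other LE and GE library for both genes, and libraries 17 and 19 did not exceed the other LE days. The reads behind MKI67, recovered from the RPKM, were 27, 0, 2652 and 1820, and behind TOP2A 1, 52, 3234 and 1748.

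Libraries 21 and 23 were both above 17 and 19 for 31 of the 39 members, and both above all LE libraries of other days for 27. Among the licensing, fork and nucleotide genes these counts were 11 and 9 of 18, and among the genes of mitotic control and the spindle 17 and 15 of 17. The shares of all LE features with these patterns were not counted, so how far the split runs through the libraries is not shown. RRM2 was at 1.43 RPKM in library 17, 0.03 in 19, 46.4 in 21 and 29.6 in 23, where no LE library of another day passed 0.19. PCNA was at 1.96, 5.49, 28.0 and 34.2 RPKM, with 18.6 the highest of the other LE days. Cyclin A2 was listed at 0 in libraries 17 and 19 and stood at 13.8 and 7.60 RPKM in libraries 21 and 23. For these genes the high pair stood above all other LE libraries, and library 17 passed them for RRM2 alone. CDC6 was at 0.08, 1.61, 3.70 and 8.32 RPKM against a highest value of 0.50 on other days, so library 19 passed it as well.

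The 8 members that did not follow this split were MCM7, CDT1, ORC1, GINS1, POLA1, RFC3, RFC4 and cyclin E1. ORC1 was at 8.48 RPKM in library 17, 0.24 in 19, 5.30 in 21 and 12.6 in 23, so library 17 sat with the high pair. RFC4 was at 10.6, 5.29, 4.51 and 11.7 RPKM, with library 21 the lowest. RFC3 was at 8.2, 1.84, 24.2 and 7.77 RPKM, with library 17 above 23. GINS1, a subunit of the fork helicase, was at 0, 2.24, 19.8 and 1.32 RPKM, and MCM7 at 1.28, 1.89, 1.74 and 12.6, so in each library 19 was above 1 of the high pair. POLA1 (2.09, 3.16, 2.22 and 3.90) and CDT1 (3.30, 1.41, 0.71 and 2.78) stayed within the other LE days in all 4 libraries. Cyclin E1 (CCNE1) was at 0, 0.11, 0 and 0.91 RPKM. RRM1 (9.28, 11.3, 16.9 and 12.8) followed the split within the range of the other LE days, and TYMS (3.54, 0, 7.19 and 3.90) followed it with library 17 close to 23. The kinase AURKB, which directs chromosome attachment and cytokinesis, was at 0 in libraries 17 and 19 and reached only 0.02 and 0.65 RPKM in 21 and 23. The high pair differed within itself too, with the kinesin KIF23 at 14.8 and 5.41.

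Counted over the 39 members, 6 in library 17, 1 in library 19, 29 in library 21 and 30 in library 23 lay above all 16 LE libraries of other days. At 1 RPKM or more were 17, 13, 35 and 37 members, and 6752, 7390, 6922 and 8741 of all features. Above all 20 GE libraries were 5, 2, 24 and 25 members. For the counts above other LE days and above GE no share of all features was counted. Among the 38 members that reached 1 RPKM in any LE library, library 21 was the highest of the 20 for 16, where it was the highest for 7.29% of the 12157 LE features that reached 1 RPKM. Library 23 was the highest for 15 of 38, against 10.4% of features. Libraries 17 and 19 were the highest for no member, against 3.31 and 2.33% of features. The row named CDC2 was at 0.66, 0.05, 9.12 and 8.51 RPKM. These counts set single libraries side by side, so no test between conditions was made of them.

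**Figure D2:**
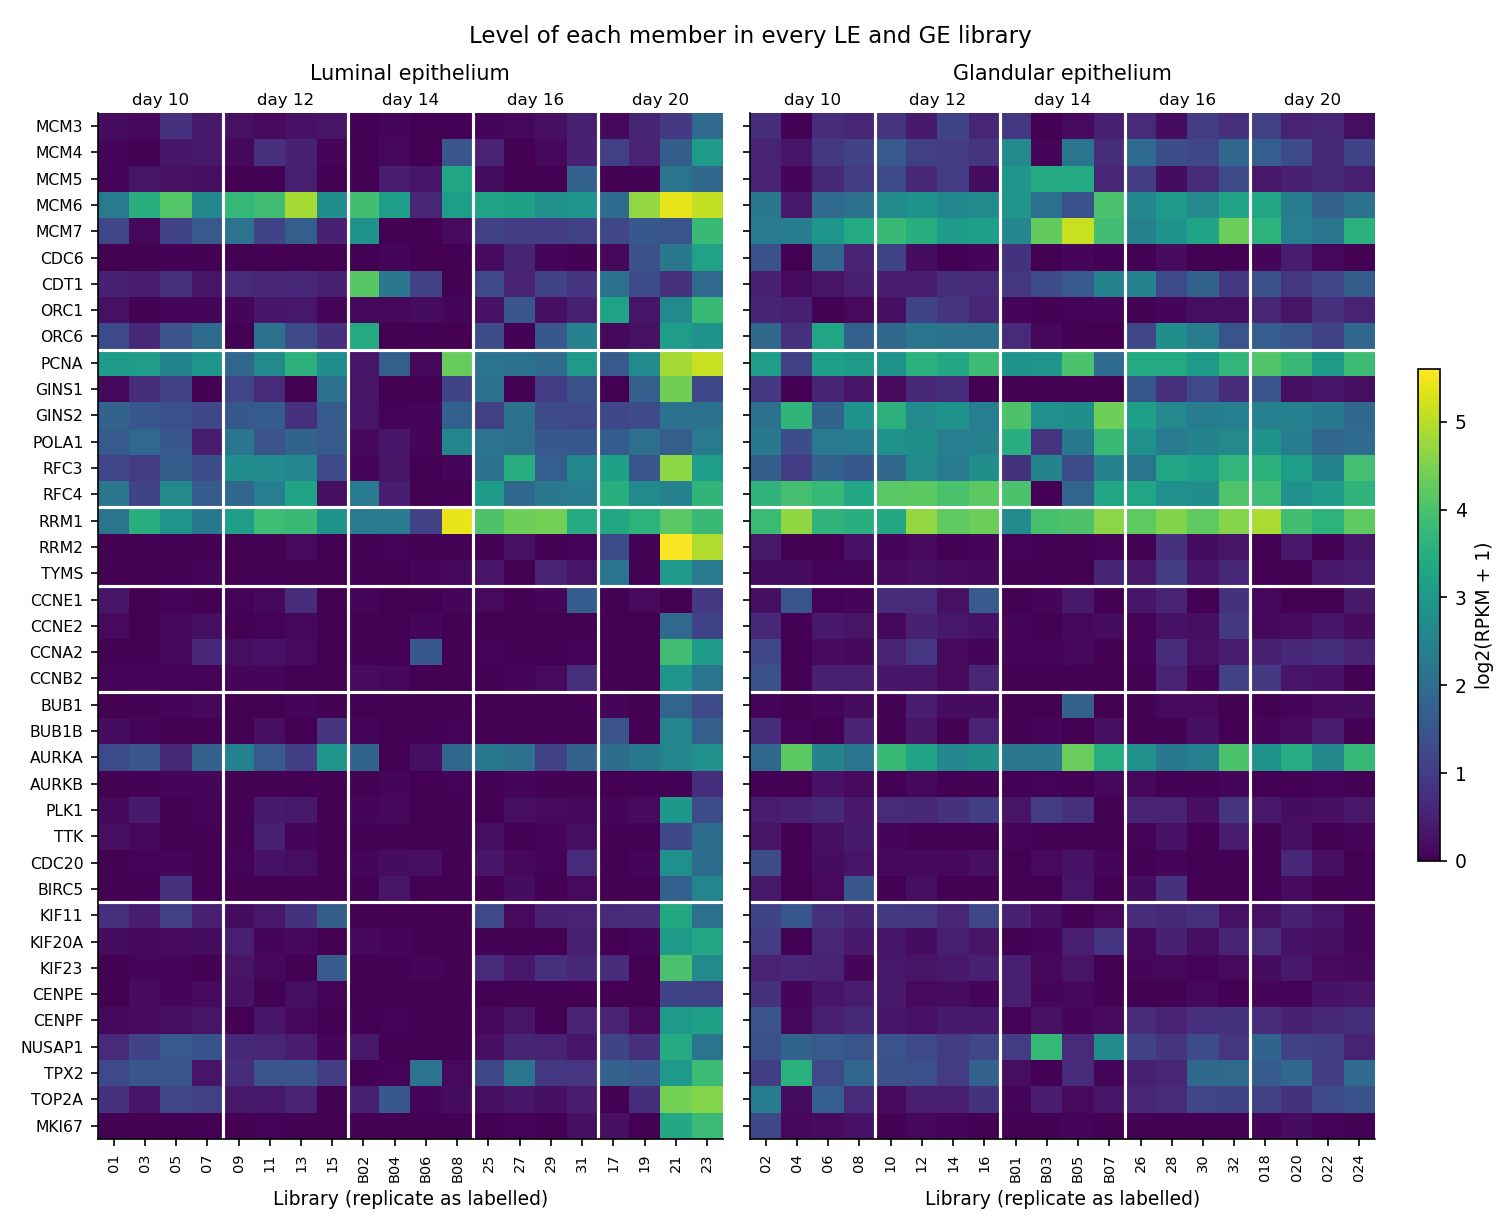
Level of each of the 39 members in the 20 LE and 20 GE libraries, ordered by role, tissue and day, as log2(RPKM + 1). Most LE values are near 0 outside rows such as RRM1, MCM6 and PCNA, and the columns of LE day 20 libraries 21 and 23 stand out across roles.

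Markers of other cells were read in the same libraries. Of 26 trophoblast symbols listed, 10 matched a row, and they summed to 1.28, 1.39, 8.6 and 16.1 RPKM in libraries 17, 19, 21 and 23, against 1.69 to 44.4 in LE of other days and 4.31 to 42.6 in GE. Within that list PAG4 and PAG11, pregnancy-associated glycoproteins of the trophoblast, were at 4.89 and 1.4 RPKM in library 21 and at 1.13 and 2.59 in library 23, and no higher than 0.03 and 0.07 in LE libraries of other days. The transcription factor CDX2 was at 0.03 and 0, GATA3 at 0 and 0.57, and HAND1 at 0.3 in both, while ELF5 was at 1.36 and 3.69 RPKM, with 0.16 and 0 in libraries 17 and 19 and up to 2.31 in LE of other days. Libraries 21 and 23 were both above 17 and 19 for 5 of the 10. Interferon tau (TP-1), named after its values were seen, was at 2.09 and 7.15 RPKM in 21 and 23 and at 0 in 17 and 19, with up to 12.7 in LE of other days. Named in the same way, PRP2 was at 6.78 and 0 and the unnamed gene ENSOARG00000008865 at 0.36 and 2.47, with at most 0.23 and 0.06 in LE of other days. The part of trophoblast RNA in the members' levels was not tested.

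The 14 measured markers of endoderm and embryo summed to 1.92, 6.98, 0.499 and 7.12 RPKM in libraries 17, 19, 21 and 23, with APOA1, APOA2 and FOXA1 listed at 0 in both 21 and 23. The gland markers summed to 4226, 247, 4003 and 1399 RPKM, but GRP was at 2.89, 0.63, 225 and 719 and SERPINA14 at 0.94, 0, 39.6 and 379, so both secreted gland products were higher in the pair with high members. In LE of other days GRP reached 358.63, above library 21, and SERPINA14 reached 9.77, below both. FOXA2, the transcription factor of the glands, was listed at 0 in all 4. The luminal markers summed to 8331, 1839.9, 14861 and 12587 RPKM, the 12 stromal markers to 76.8, 326, 21.8 and 215, the 19 immune markers to 50.0, 22.5, 30.5 and 93.2, the 8 endothelial markers to 7.18, 9.69, 9.42 and 21.5, and the 13 ciliated cell markers to 0.84, 12.7, 6.69 and 2.72. The luminal sum, GRP and SERPINA14 were higher in libraries 21 and 23 than in 17 and 19, and so were single immune genes. Of 19 immune markers 5 were higher in both: PTPRC, the pan-leukocyte marker, at 2.77, 2.72, 5.83 and 8.86 RPKM, the T cell gene CD3E at 2.38, 1.52, 5.14 and 12.15, the macrophage gene AIF1 at 2.60, 1.76, 10.22 and 15.78, GZMB at 0.21, 0.02, 4.83 and 2.25, and CD163 at 0.10, 0.02, 0.82 and 0.93. In libraries 21 and 23 GZMB, a granzyme of killer lymphocytes, was above the 0.34 reached in LE of other days, where PTPRC reached 6.85, CD3E 8.30 and AIF1 10.95. CD3D, CD8A, CD8B and CD4 were listed at 0 in all 4 libraries. Both libraries were above 17 and 19 for 4 of 10 luminal, 3 of 12 glandular, 2 of 13 ciliated, 1 of 12 stromal, 1 of 8 endothelial and 2 of 14 endoderm and embryo markers. The part of these cells in the members' levels was not tested.

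Set against the mean of the 4 day 20 conceptuses per kilobase per M exon reads, the members of library 21 stood at a median of 78.8% of the conceptus level, and 35 of 39 were above 10%. In library 23 the median was 50.3%, with 38 of 39 above 10%. The 13 trophoblast markers, the genes named after their values were seen included, had medians of 1.52% and 5.73%, with 4 and 6 above 10%. The 10 endoderm and embryo markers with a day 20 conceptus level of 1 or more had medians of 0.00126% and 0.0865%, and none was above 10%. In both libraries the members' median share lay above that of either marker list. Members with a level of their own in LE of other days, such as RRM1, MCM6 and RFC3, enter that median. Shares were not computed for the other LE libraries of day 20, so the level of LE itself was not set apart. The part of conceptus RNA in the members' levels was not tested.

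**Figure D3:**
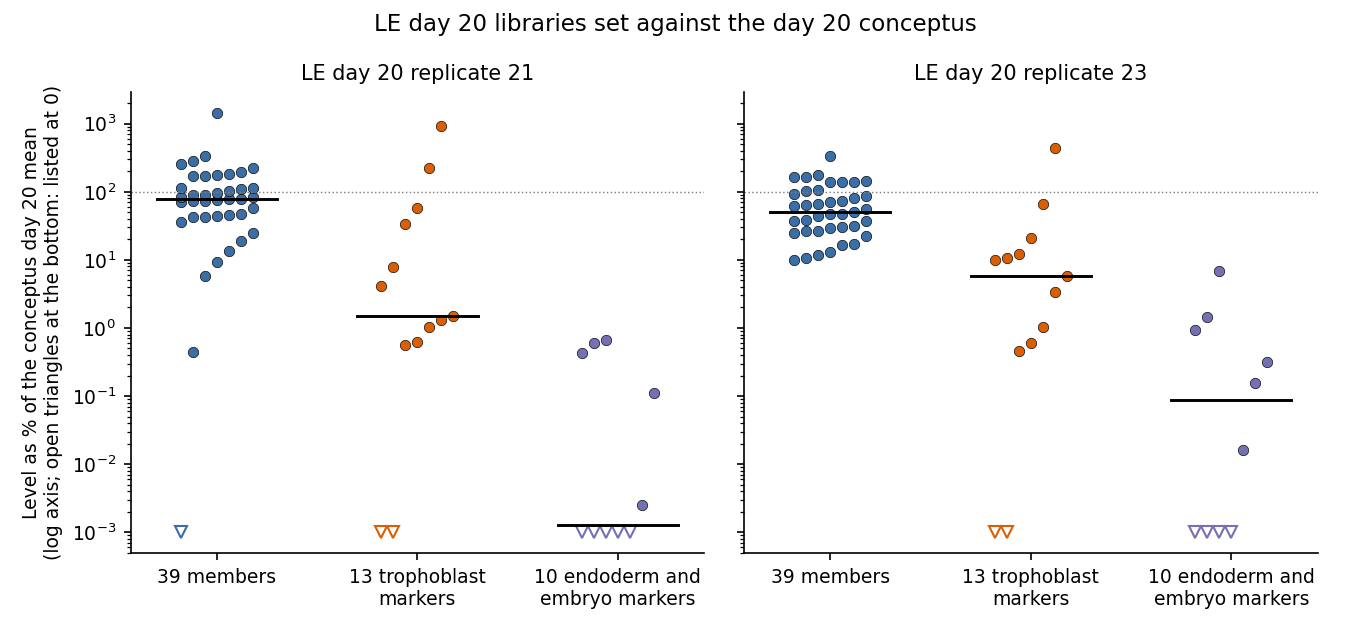
Level of each gene in LE day 20 libraries 21 and 23 as a percentage of the day 20 conceptus mean, for the 39 members, 13 trophoblast markers and 10 endoderm and embryo markers (logarithmic axis, 1 point per gene). The members centre on 78.8% and 50.3%, the trophoblast markers on 1.52% and 5.73%, and the endoderm and embryo markers on 0.00126% and 0.0865%.

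Changes between days in LE were tested with limma on log2(RPKM + 1) over 9203 genes at 1 RPKM or more in at least 4 LE libraries, and 19 members passed that filter, none of them a cyclin. A gene is said to rise or fall where its Benjamini-Hochberg adjusted p over all genes was under 0.05. RFC3, a subunit of the clamp loader, was at 5.7, 5.51, 4.99 and 1.36 RPKM on day 12 and at 0.05, 0.23, 0 and 0.06 on day 14, without overlap. It fell by 2.20 ± 0.56 on the log2 scale (SE, limma, adjusted p = 0.0134) and rose again by 2.34 ± 0.56 to 3.32, 10.2, 2.17 and 4.92 RPKM on day 16 (adjusted p = 0.0101). It was the 1 member called lower from day 12 to 14, where 9.76% of all genes were, and the 1 called higher from day 14 to 16, where 11.0% were. Upper quartile scaling added 1 member that was higher on day 14 than on day 12, and without the day 14 library B08 5 members were called at each of these steps. From day 10 to 12 no member was called, none had an unadjusted p below 0.05 and neither edgeR nor DESeq2 called one from the recovered reads, beside 0.565% of all genes by limma.

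In LE limma called 1 member between days 10 and 20, ORC1, from 0.19, 0.02, 0.06 and 0.06 RPKM to 8.48, 0.24, 5.30 and 12.6 (2.38 ± 0.49 on the log2 scale, limma, adjusted p = 0.00708). Among all genes 3.18% rose. All 4 day 20 libraries lay above all of day 10, library 19 only just. All 19 members changed upward, with a median of 1.03 against 0.33 over all genes, and 7 had an unadjusted p under 0.05. TOP2A, with a log2 change of 1.59 ± 0.70, was among those 7 and was not called (adjusted p = 0.221). ORC1 reached 1 RPKM in 4 LE libraries, 3 of them of day 20, so it passed the filter through the group where it is high, and its call supports nothing further. Without library 17, 21 or 23 it fell below the filter and was not tested. MCM4, MCM5, KIF11, NUSAP1 and TOP2A also passed the filter only with day 20 libraries counted. The upward count and the median hold these genes and support nothing further either.

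From day 16 to 20 limma called no member, and 0.261% of all genes in either direction. The values were above 0 for 18 of 19 members, with a median log2 change of 0.71 against -0.03 over all genes, and 6 had an unadjusted p under 0.05: MCM4, ORC1, KIF11, NUSAP1, TPX2 and TOP2A. Among these 6, TPX2 alone reached 1 RPKM in at least 4 LE libraries outside day 20. The others passed the filter through the group where they are high, so their p-values and their part in the median support nothing further. edgeR on recovered reads also called none, and DESeq2 on the same reads called 8. TOP2A rested on 0.18, 0.26, 0.17 and 0.35 RPKM on day 16 and on the divided day 20 values given above, and its log2 change of 2.13 ± 0.70 had an adjusted p of 0.244.

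Other genes of the pathway were counted beside the 3.18% of all genes that rose in LE from day 10 to 20. Of 17 tested genes on a list of other mitosis genes, 3 rose: ANLN, a scaffold of the cleavage furrow, by 2.64 on the log2 scale (adjusted p = 0.0131), CEP55, which directs abscission, by 1.86 (adjusted p = 0.0346), and the kinetochore gene CASC5 by 1.36 (adjusted p = 0.0317). The list's median change was 0.89. MYC, which drives entry into the cycle, rose by 2.93 (adjusted p = 0.0209) and was the 1 called among 17 tested regulators. None of 23 tested other replication genes was called, and none of 12 tested inhibitors and quiescence genes. For these other genes neither the single day 20 libraries nor fits without libraries 21 and 23 are given. Whether they passed the filter only through day 20 is not given either, so a rise shared by all day 20 libraries is not shown.

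In GE 16 members passed the filter, over 10049 genes. MCM5, a helicase subunit, was at 1.39, 0.53, 0.97 and 0.14 RPKM on day 12, at 6.71, 9.65, 9.67 and 0.52 on day 14 and at 1.02, 0.14, 0.64 and 1.43 on day 16. It rose by 1.84 ± 0.47 on the log2 scale (limma, adjusted p = 0.0115) and fell by 1.80 ± 0.47 (adjusted p = 0.0124), with 3 of the 4 day 14 libraries above both other days and the last, B07, within them. MCM5 reached 1 RPKM in 6 GE libraries, these 3 among them, so it passed the filter through the group where it is high. Both MCM5 calls ended in fits of the compared days alone. ORC6 went the other way, from 2.7, 3.56, 3.24 and 3.31 RPKM on day 12 to 0.62, 0.09, 0 and 0 on day 14 and to 1.3, 5.87, 4.09 and 1.73 on day 16, without overlap. Its changes were -1.86 ± 0.45 (adjusted p = 0.00793) and 1.74 ± 0.45 (adjusted p = 0.0114), and the call of the rise ended in the fit of days 14 and 16 alone. RFC4 fell by 1.85 ± 0.57 from day 12 to 14 (adjusted p = 0.0302) and RFC3 rose by 1.30 ± 0.44 from day 14 to 16 (adjusted p = 0.0452). Leaving out 1 library ended the call of RFC4 in 6 of 8 fits and that of RFC3 in 5 of 8. The RFC3 call also ended under all 3 scalings and the RFC4 call without library B03, where its change was -1.09, and both ended with edgeR and DESeq2 on recovered reads. So 3 of 16 members were called at each of these steps, where 16.0% and 17.5% of all genes were. From day 14 to 16, 2 were higher and 1 lower, and under TMM, RLE or upper quartile scaling 1 was higher and 1 lower.

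From day 10 to 20 RFC3 rose in GE from 2.14, 1.03, 2.38 and 1.89 RPKM to 11.1, 7.72, 4.76 and 14.2 (1.80 ± 0.44, limma, adjusted p = 0.0141). No libraries overlapped, and it was the 1 of 16 members called higher, where 2.63% of all genes were. Without GE library 024 the adjusted p passed 0.05. From day 10 to 12 limma called no member and 0.527% of all genes, with 2 members at an unadjusted p under 0.05, and from day 16 to 20 none and 0.308%, with no member under that p. From recovered reads, neither edgeR nor DESeq2 called a member at these steps. TOP2A stayed between 0.06 and 4.14 RPKM over all GE libraries and MKI67 between 0.00811 and 1.31, and for both the highest library was 02 of day 10.

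Among other replication genes in GE, 8 of 26 tested fell from day 12 to 14, where 9.68% of all genes fell. From day 14 to 16, 6 of them rose, where 12.6% of all genes rose. TIPIN, which steadies stalled forks, fell from a mean of 3.96 to 0.580 RPKM (log2 change -1.78, adjusted p = 0.0105) and rose to 6.52 (2.32, adjusted p = 0.00185). RPA3, of the complex that coats single-stranded DNA, went from 12.9 to 3.21 and to 16.3 RPKM (-2.22 and 2.45, adjusted p = 0.0146 and 0.00777). Of 17 other mitosis genes 3 fell and then 7 rose, CEP55 among the latter (2.23, adjusted p = 0.00103). In LE 3 of 23 other replication genes fell from day 12 to 14 (MCM10, PRIM1 and TIPIN), where 9.76% of all genes fell. From day 14 to 16, 2 rose again (MCM10 and TIPIN), where 11.0% rose, so these LE counts were near the shares over all genes. The step into day 14 and out of it coincided with the lower number of features listed in LE on that day. GE libraries of day 14 listed 6539 to 7916 features at 1 RPKM or more, against 7152 to 9161 in other GE libraries. Day 14 is also the day of the B labels, and the part of these differences was not tested.

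LE and GE were compared in a single limma fit of 40 libraries over 11131 genes, with 24 members past the filter. Over the 5 days 9 members were lower in LE and 1 was higher, where 42.6% of all genes were lower and 12.7% higher. MCM7 ranged from 3.48 to 34.01 RPKM in GE (median 8.3) and from 0 to 12.6 in LE (median 1.19). The difference was -2.02 ± 0.26 on the log2 scale (adjusted p = 3.65e-08), with 14 LE libraries at 1 RPKM or more against 20 of GE. GINS2 ranged from 2.42 to 19.7 RPKM in GE (median 5.24) and from 0.04 to 3.33 in LE (median 1.52), a difference of -1.48 ± 0.19 (adjusted p = 5.12e-08). RFC4 differed by -1.34, AURKA by -1.29, POLA1 by -0.90, RRM1 by -0.75, MCM4 by -0.64, the microtubule-binding NUSAP1 by -0.58 and RFC3 by -0.55, with adjusted p from 2.13e-05 (AURKA) to 0.0347 (RFC3).

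MCM6 was the exception, higher in LE: a median of 8.34 RPKM (0.51 to 40.7) against 5.09 in GE (0.31 to 14.9), a difference of 0.95 ± 0.28 (adjusted p = 0.00463). MCM6 and MCM7 are subunits of the same ring, and they differed between the tissues in opposite directions. The median difference over members was -0.25 against -0.37 over all genes, so the members' median was nearer to 0 than that of all genes. Rescaling by TMM, which brings the all-gene median to -0.08, left 6 members lower and 3 higher, and upper quartile scaling, with a median of 0.05, left 4 lower and 3 higher. NUSAP1, RRM1 and RFC3 lost their call under both, POLA1 and MCM4 under upper quartile scaling, and MCM7, GINS2, RFC4, AURKA and MCM6 kept theirs in every scaling tried.

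**Figure D4:**
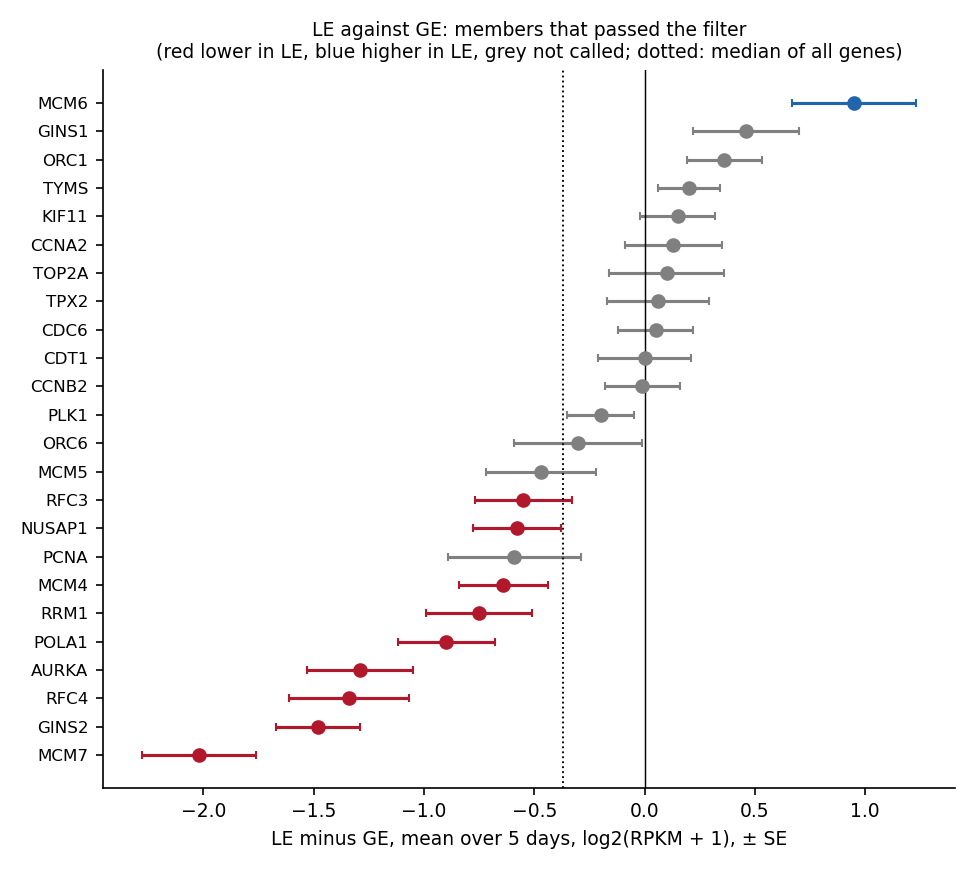
Difference between LE and GE (LE minus GE, mean over 5 days, log2 of RPKM + 1, bars are SE) of the 24 tested members, red where called lower in LE, blue where higher and grey where not called, with the median of all genes dotted at -0.37. MCM7, at -2.02, GINS2, RFC4 and AURKA lie lowest, and MCM6, at 0.95, lies highest.

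Day by day the count moved. LE was lower than GE for 2 of 24 members on day 10 (MCM7 and RFC4), where 11.6% of all genes were lower, for 3 on day 12 (MCM7, GINS2 and RFC4; 9.17%), for 8 on day 14 (MCM5, MCM7, GINS2, POLA1, RFC3, RFC4, AURKA and NUSAP1; 27.1%) and for 3 on day 16 (MCM4, MCM7 and GINS2; 15.7%). On days 10, 12, 14 and 16 no member was called higher in LE in this fit, where 2.65, 3.03, 8.75 and 6.76% of all genes were. The scaling moved these counts: rescaled by TMM, RLE or upper quartile factors, day 10 had 1 member higher in LE and none lower. Day 12 had none of either under TMM and upper quartile scaling or with edgeR and DESeq2 on recovered reads, and day 16 had 1 lower under each scaling.

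On day 20 no member was lower in LE and 5 were higher, where 6.44% of all genes were lower and 4.29% higher. ORC1 stood at 8.48, 0.24, 5.30 and 12.6 RPKM in LE and at a mean of 0.488 ± 0.205 (SD, n = 4) in GE, a difference of 1.93 ± 0.38 (limma, adjusted p = 0.000498). TYMS was at 3.54, 0, 7.19 and 3.90 RPKM against 0.160 ± 0.186 in GE (1.68 ± 0.32, adjusted p = 0.000318), with 1 LE library at 0 and the others above GE. TYMS reached 1 RPKM in 3 LE libraries, all of day 20, and in 1 GE library, so it passed the filter through the group where it is high and was not tested without library 17, 21 or 23. CDC6 too reached 1 RPKM in LE on day 20 alone, in 3 libraries, and in 3 GE libraries. ORC1 did so in 4 LE libraries, 3 of them of day 20, and in 1 GE library. ORC1, TYMS and CDC6 thus passed the filter only with LE day 20 counted, so their p-values support nothing further. CDC6 differed by 1.58 ± 0.37 (adjusted p = 0.00373), the mitotic motor KIF11 by 1.43 ± 0.37 (adjusted p = 0.00988) and MCM6 by 1.90 ± 0.63 (adjusted p = 0.0446). The MCM6 call ended in 6 of 8 fits that left out 1 library (LE 19, 21 or 23, GE 020, 022 or 024) and under 5 of 11 other settings, and that of KIF11 without library 21. Without LE library 21 the calls came to 2 members and without library 23 to 3. Without both none was called, but ORC1 and TYMS then fell below the filter and were not tested. Of 23 other mitosis genes 5 were higher in LE on day 20, ANLN by 2.76 (limma, adjusted p = 2.01e-05). Of 13 inhibitors and quiescence genes CDKN1B (p27), which holds cells in G1, was lower (-2.07, adjusted p = 0.00225), as was GADD45A (-2.21, adjusted p = 0.00944). For these other genes no single libraries and no fits without libraries 21 and 23 are given.

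The difference between the tissues' changes was tested for 24 members over 5 steps, 120 tests, adjusted over all genes of a step. From day 10 to 20 the change in LE exceeded that in GE for CDC6 by 2.50 ± 0.53 on the log2 scale (limma, adjusted p = 0.00337), for ORC1 by 2.13 (adjusted p = 0.0156) and for TYMS by 1.78 (adjusted p = 0.0155). From day 16 to 20 it did so for TYMS by 1.96 (adjusted p = 0.0295). Of all 11131 genes 422 were called from day 10 to 20 and 52 from day 16 to 20. CDC6, ORC1 and TYMS passed the filter only with LE day 20 libraries counted, so their p-values support nothing further. No other member was called at any step. From day 10 to 12, 12 to 14 and 14 to 16, 39, 291 and 463 of all genes were called.

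In the conceptus every member was expressed, and 27 of 39 fell from day 14 to day 20 with none rising. Among all genes 32.3% fell and 34.3% rose (edgeR's quasi-likelihood test on deposited gene reads, 13918 genes). The median log2 change of the members was -0.76, against 0.06 over all genes. All 6 fork genes fell, 7 of 9 licensing genes, 2 of 3 nucleotide genes, 2 of 4 cyclins, 5 of 8 genes of mitotic control and 5 of 9 of the spindle and chromosome. The call of the licensing gene MCM4 ended in 5 of 8 fits that left out 1 library and under 6 of 9 other settings. By limma on log2(RPKM + 1), which moves the all-gene median to 0.29, 17 fell and 1 rose. The comparisons of days 14, 16 and 20 share libraries and are given side by side.

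CDC6 showed the largest change. In counts per M gene reads after TMM scaling (CPM), it stood at 189.6, 176, 159 and 169 on day 14. It was at 88.8, 81.6, 89.3 and 60.7 on day 16 and at 23.9, 26.7, 30.8 and 26.4 on day 20, with no overlap between days. TMM scaling took library 1 of day 14 from 11.71 to 9.63 M reads and library 1 of day 16 from 14.70 to 16.93 M. From day 14 to 20 it fell by 2.69 ± 0.24 on the log2 scale (SE, edgeR, adjusted p = 1.29e-07). PCNA was at 236, 301, 325 and 253 CPM on day 14, at 91.1, 94.5, 103 and 95.7 on day 16 and at 85.9, 65.9, 69.2 and 81.5 on day 20. Its fall of 1.88 ± 0.17 (adjusted p = 1.74e-07) came by day 16 (-1.54, adjusted p = 5.3e-06), and from day 16 to 20 the change was -0.34 (adjusted p = 0.115). MCM3 fell in both steps, from 238 ± 32.5 CPM to 109 ± 8.59 and to 78.1 ± 6.34 (SD, n = 4 each; -1.61 over both, adjusted p = 2.43e-07).

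Cyclin E1, which with its kinase starts S phase, fell from 50.2 ± 6.76 to 17.1 ± 3.99 CPM (-1.56, adjusted p = 1.13e-05), and cyclin A2 from 119.9 ± 15.7 to 47.4 ± 4.98 (-1.34, adjusted p = 1.65e-05). Cyclin E2 and cyclin B2 (CCNB2) did not pass the test (-0.10 and -0.35, adjusted p = 0.756 and 0.131). RRM2 fell from 488 ± 122 to 159 ± 32.4 CPM (-1.62, adjusted p = 0.000175) and RRM1 from 184 to 114 (-0.69, adjusted p = 0.000121), while TYMS did not pass (-0.41, adjusted p = 0.103). PLK1, the Polo kinase that drives mitotic entry, fell from 176 ± 15.1 to 72.3 ± 5.91 CPM (-1.29, adjusted p = 4.34e-05). TTK fell by 1.11, BIRC5 by 1.08, CDC20 by 1.03 and AURKB by 0.73.

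MKI67 passed the test and TOP2A did not. MKI67 was at 365, 440.3, 543 and 407 CPM on day 14, at 249, 225, 259 and 214 on day 16 and at 217, 168, 187 and 187 on day 20. It fell by 1.21 ± 0.24 from day 14 to 20 (adjusted p = 0.00037), with every library of days 16 and 20 below day 14. TOP2A was at 404, 496, 505 and 447 CPM on day 14, at 372, 376, 546 and 398 on day 16 and at 385, 343, 336 and 332 on day 20. Its change of -0.41 ± 0.20 did not pass (edgeR, adjusted p = 0.0848), although in CPM every day 20 library was below every day 14 library. Per kilobase per M exon reads these days overlapped, at 55.1, 70.2, 67.8 and 61.8 on day 14 and 82.1, 68.4, 65.5 and 65.7 on day 20. The row named CDC2 fell from 266 ± 43.1 to 159 ± 19.2 CPM (-0.74, adjusted p = 0.00715). Whether these 2 members differed from each other was not tested.

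The falls were also counted by step. From day 14 to 16 13 members fell and 3 rose, where 24.3% of all genes fell and 25.6% rose. From day 16 to 20 21 fell and 1 rose, where 18.9% fell and 18.1% rose. Of the 18 licensing, fork and nucleotide genes 8 fell in the first step and 9 in the second. None of the 8 genes of mitotic control was called in the first step, and 6 of them fell in the second: BUB1, AURKB, PLK1, TTK, CDC20 and BIRC5. CDC20, which activates the anaphase-promoting complex, was at 188, 150.5, 157 and 157 CPM on day 14, at 157, 171, 182 and 147 on day 16 and at 70.5, 75.8, 79.3 and 93.6 on day 20, a change of 0.01 ± 0.20 (adjusted p = 0.98) and then of -1.04 ± 0.21 (adjusted p = 0.00129). In CPM the libraries of days 14 and 16 overlapped, and all of day 20 were lower. Per kilobase per M exon reads days 14 and 16 did not overlap, at 84.5 to 102 and 119.7 to 136, and day 20 was again lower.

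Fallen in both steps were MCM3, MCM5, CDC6, CCNE1, CCNA2 and TPX2, and in the first alone PCNA, GINS1, POLA1, RRM2, MKI67 and CENPE, a kinesin of the kinetochore. In the second alone fell 13 members, among them CDT1 (-0.82, adjusted p = 0.00175), MCM6, GINS2, RFC4 and RRM1 beside the mitotic control genes, KIF11 (-0.69, adjusted p = 0.00138) and KIF20A (-0.89, adjusted p = 0.0024). Called in neither step were MCM4, MCM7, RFC3, TYMS, CCNE2, CCNB2, BUB1B, AURKA, CENPF and TOP2A. The first-step calls of MCM5, TPX2, CCNA2 and CENPE ended under upper quartile scaling, by limma on RPKM and with the replicate block, and when 1 library was left out in 7, 6, 2 and 4 of 8 fits. The second-step call of MCM6 ended in 5 of 8 such fits and under 4 of 9 other settings. A call in a single step does not show that the steps differ, and that difference was not tested. By limma on log2(RPKM + 1), with an all-gene median of 0.30, the first step had 8 members higher and 4 lower, and upper quartile scaling, with 0.24, had 3 higher and 9 lower.

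Against the general fall, KIF23, a motor of the central spindle that is needed for cytokinesis, rose from 60.9, 78.5, 81.9 and 79.6 CPM on day 14 to 148, 138, 237 and 92.3 on day 16 and was at 68.6, 67.2, 98.2 and 76.1 on day 20. The day 16 libraries lay above all of day 14, and 1 of them, library 5, lay within day 20. Its changes were 1.03 ± 0.24 (edgeR, adjusted p = 0.00211) and -0.99 ± 0.24 (adjusted p = 0.00448). NUSAP1 (0.52, adjusted p = 0.0297) and ORC6 (0.59, adjusted p = 0.0136) rose from day 14 to 16 too. Leaving out 1 library ended the NUSAP1 call in 4 of 8 fits and the ORC6 call in 1 of 8. ORC1 moved the other way, from 821, 1032, 904 and 729.9 CPM to 590, 387, 414 and 384 and back to 698, 639, 937 and 810. It fell by 0.97 ± 0.23 (edgeR, adjusted p = 0.00274) and rose by 0.80 ± 0.23 (adjusted p = 0.0136). In CPM day 16 was below both other days in all libraries. Per kilobase per M exon reads library 1 of day 16, at 264, lay within day 14 (235 to 341).

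**Figure D5:**
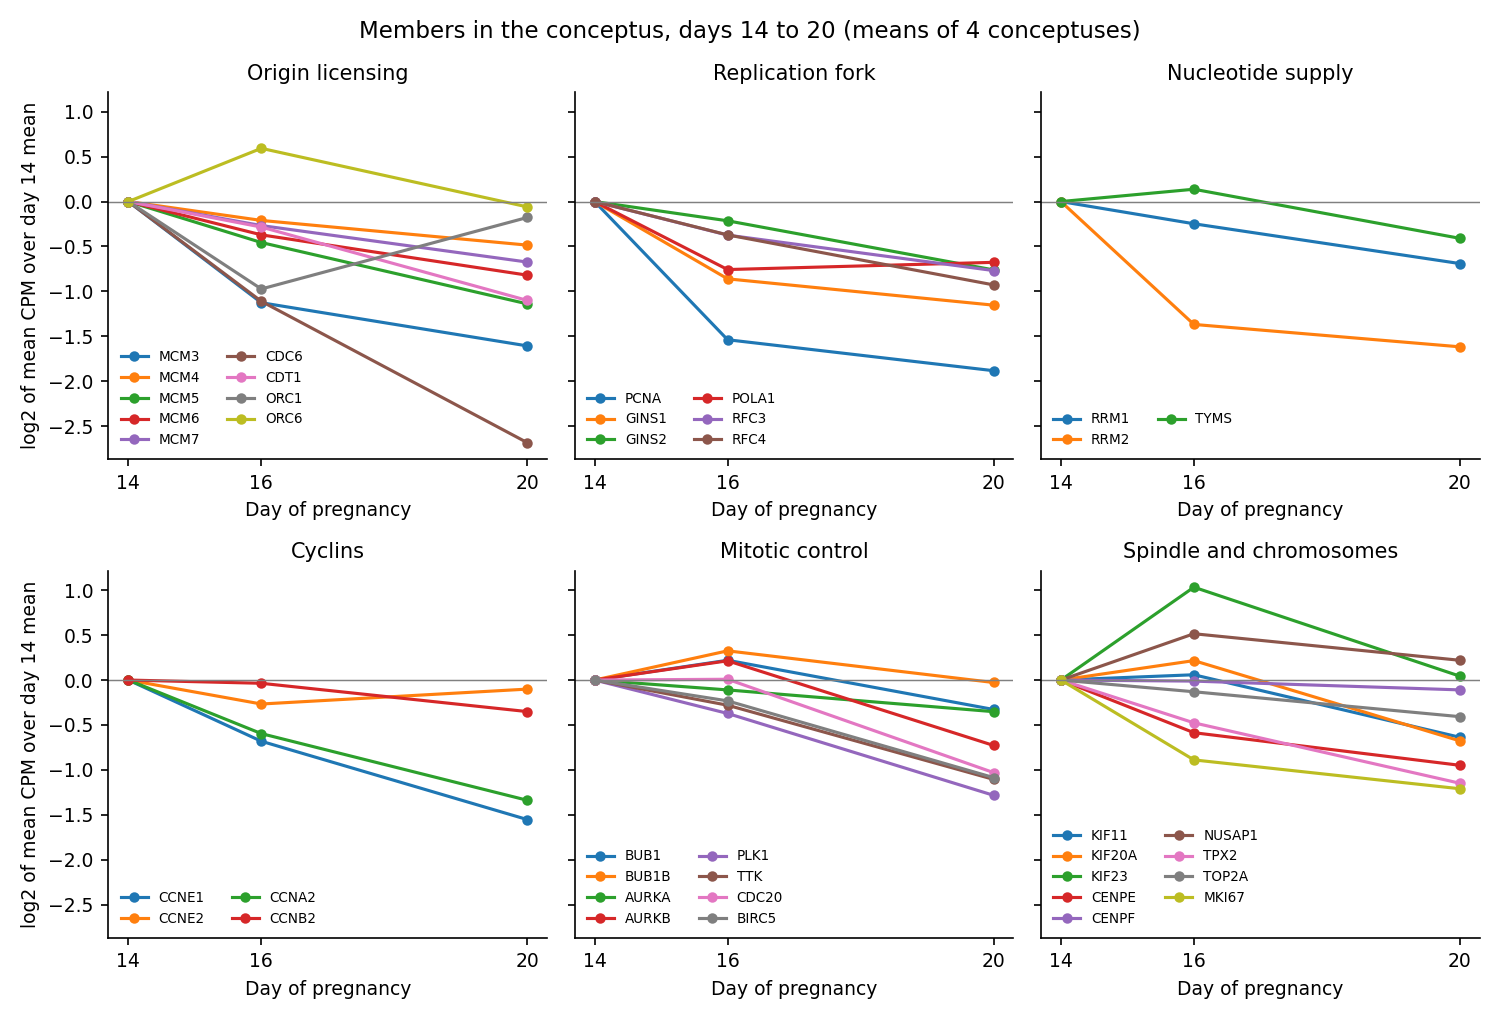
Log2 of the mean CPM of each member over its day 14 mean on days 14, 16 and 20 (means of 4 conceptuses, no error drawn), with 1 panel per role. CDC6 falls in both steps, PCNA mostly by day 16 and CDC20 after day 16, and KIF23 is highest on day 16.

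The other genes of the pathway went the same way from day 14 to 20, where 32.3% of all genes fell and 34.3% rose. Of 38 other replication genes 28 fell and 2 rose (median -0.66): GMNN, the geminin that blocks CDT1, fell from 58.3 ± 6.61 to 20.0 ± 1.65 CPM (-1.55, adjusted p = 2.2e-07), and CDC45, the partner of MCM and GINS in the fork helicase, from 34.4 ± 3.65 to 10.9 ± 1.81 (-1.65, adjusted p = 1e-06). Of 50 other mitosis genes 35 fell and none rose (median -0.81), the checkpoint gene MAD2L1 from 127 to 51.8 CPM (-1.29, adjusted p = 7.36e-07). Of these 50, CEP55 rose from day 14 to 16 (1.23, adjusted p = 0.000219) and fell afterwards (-0.80, adjusted p = 0.00719), as KIF23 did. TROAP (0.83 and -1.15) and the condensin subunit NCAPD2 (0.80 and -0.73) did likewise, with adjusted p from 0.000141 to 0.00202.

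Of 14 inhibitors and quiescence genes, which hold the cycle back, 11 rose and 1 fell from day 14 to 20. Among all genes 34.3% rose and 32.3% fell. The list's median was 1.00, against 0.06 over all genes. CDKN1A (p21), an inhibitor of cyclin-dependent kinases, was at 0.697 ± 0.163 CPM on day 14, 10.2 on day 16 and 10.3 ± 3.55 on day 20 (3.87 over both steps, adjusted p = 7.45e-07). The rise came by day 16 (3.84, adjusted p = 3.79e-06), and the change after that was 0.02 (adjusted p = 0.964). CCNG2, a cyclin of arrested cells, rose by 2.39 (adjusted p = 8.26e-06) and BTG1, an antiproliferative gene, by 1.80 (adjusted p = 2.28e-05), while CDKN2C, named after its values were seen, fell (-1.17, adjusted p = 0.0188). Of 30 regulators 14 fell and 7 rose: the retinoblastoma genes RB1 (2.10, adjusted p = 3.25e-06) and RBL2 (1.48, adjusted p = 2.36e-06) rose, as did CDC25B, a phosphatase that activates cyclin-dependent kinases (1.71, adjusted p = 1.04e-05).

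Day 12 could be compared with day 14 only across amplification, so stage and library preparation cannot be told apart. By edgeR on gene reads 23 members were higher on day 14 and 7 lower, where 38.1% of all genes were higher. PCNA was at 53.1, 34.6, 59.9, 54.5 and 36.8 CPM on day 12, all below day 14 (2.54 ± 0.16, adjusted p = 4.59e-10), and MCM3 at 25.0, 21.2, 33.3, 25.7 and 19.1 (3.26 ± 0.15, adjusted p = 1.21e-11). TOP2A was higher on day 12, at 835, 500.5, 998, 762 and 494 CPM (-0.63, adjusted p = 0.007), with 2 of the 5 libraries within day 14. MKI67 was at 501, 305, 770.4, 517 and 284 CPM, on both sides of day 14 (-0.12, adjusted p = 0.653). CENPF, a long kinetochore gene, was lower on day 14 (-1.4, adjusted p = 4.6e-05).

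How reads were counted moved these values. On day 12 gene reads numbered 12.29 to 20.53 M per library, against 4.89 to 9.55 M in exons. With exon reads on every day 15 members were higher and 13 lower, and with limma on log2(RPKM + 1), where the all-gene median was 0.94, 28 were higher and 2 lower. Across the 39 members, which are not independent replicates, the change correlated with the log2 exon length at r = -0.4, longer genes being lower on day 14 relative to shorter ones. In the fit on gene reads MCM3, MCM5, CDT1, PCNA, MCM7, CDC20 and ORC1 were higher on day 14 by more than 2 on the log2 scale.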

How the data were processed

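RNA-seq tables of LE and GE (20 libraries each) and conceptus (17) were used. The authors deposited RPKM values per gene for every library, per the file headers, and for the conceptus also gene read counts. Reads were mapped to sheep Oar 3.1, per the submitters' processing notes. Which aligner, counter and annotation the authors ran was not stated in the labels or headers. Of 25197 features, 23 with no identifier were left out. LE and GE were captured from the same slides, but the labels do not tie a LE library to a GE library.

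LE and GE were tested with limma 3.58.1 (trend) on log2(RPKM + 1), over genes at RPKM 1 or more in at least 4 libraries of the fit. Fold changes on this scale understate those of low genes. Reads behind RPKM were recovered from exon length and mapped reads (lengths for 18942 features). In the 45 amplified libraries 100.00% of low values came out whole within 0.1 reads. The recovered reads were used in alternatives with edgeR 4.0.16 and DESeq2 1.42.0. Conceptus gene reads were tested with edgeR's quasi-likelihood test, TMM scaling and filterByExpr. P-values were Benjamini-Hochberg adjusted over all genes of a fit, with a threshold of 0.05. Levels between genes are per kilobase per M exon reads. The code was tested on simulated data (R 4.3.3, Python 3.11.15).

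The members and gene lists were chosen with earlier results of these data known. Every matched member could be named. Values in every library were set for TOP2A, MKI67 and PCNA and for up to 6 called members per comparison with the smallest adjusted p, and up to 3 called genes per list were named beside them. Alternatives were another pseudocount, filter, scaling, test, set of libraries or replicate block, and leaving out each library.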

Additional observations from a re-analysis of the deposited data

Results flagged for a closer look

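In 6 of 56 groups of 4 or 5 libraries examined, 1 library stood apart from the others of its group, where chance gives about 1 in 20. Summed RPKM of the members reached 134.0 in GE library 32 of day 16. PCNA was at 18.6 RPKM in LE library B08 of day 14, next to 2.22 in the second highest, and at 7.05 in LE library 31 of day 16, next to 3.37. In GE of day 10 library 04 had the lowest PCNA, 1.13 RPKM against 7.29 in the next, and library 02 the highest MKI67, 1.31 against 0.21. TOP2A was at 546 CPM in conceptus replicate 4 of day 16, against 398 in the next.

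The change in LE exceeded the change in GE by limma for CDC6 (2.50 on the log2 scale), ORC1 (2.13) and TYMS (1.78) from day 10 to 20 and for TYMS (1.96) from day 16 to 20. All 4 values include LE day 20 libraries 21 and 23. TYMS and CDC6 reached 1 RPKM in LE on day 20 alone, and ORC1 in 3 libraries of that day and 1 of day 16, so they passed the filter largely through the group where they are high.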

How the results depend on the processing

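Of 381 settings tried on the 20 counts of called members, 308 stayed within 1.5 times the count reported and 73 did not. No conceptus count was among these 73. In the counts that follow the cause was not tested, except that fewer libraries or genes enter some fits.
In LE from day 12 to 14 (1 called), 2 were called with pseudocount 0.1 and with upper quartile scaling, 3 with edgeR on recovered reads and 5 with DESeq2. From day 14 to 16 (1), pseudocount 0.1 and edgeR gave 2 and DESeq2 3. From day 16 to 20 (0), DESeq2 gave 8. From day 10 to 20 (1), no filter gave 3, edgeR 2, DESeq2 8, and RPKM 5 or more, the libraries of these days alone, or leaving out libraries 21 and 23 gave 0. In these last fits ORC1, the 1 called, fell below the filter and was not tested.
In GE from day 12 to 14 (3), RPKM 5 or more and the libraries of these days alone gave 1, edgeR 6 and DESeq2 7. From day 14 to 16 (3), they gave 1, 0, 5 and 7. From day 10 to 20 (1), edgeR gave 2 and DESeq2 3.
Between LE and GE on day 10 (2), pseudocount 0.1 and each scaling gave 1, no filter 0 and that day alone 5. On day 12 (3), TMM, upper quartile, edgeR and DESeq2 gave 0 and that day alone 5. On day 14 (8), upper quartile gave 4, DESeq2 15 and that day alone 2. On day 16 (3), each scaling gave 1, and DESeq2 and that day alone 5. On day 20 (5), no filter gave 9, RPKM 5 or more 1, DESeq2 15, and that day alone or leaving out libraries 21 and 23 gave 0. With that day alone ORC1, TYMS, CDC6 and KIF11 fell below the filter and were not tested. Without libraries 21 and 23 the same held for ORC1 and TYMS.
Leaving out 1 library at a time gave 1 to 5, 1 to 5, 0 to 2 and 0 to 3 in LE, 2 to 4, 2 to 4 and 0 to 1 in GE, 0 to 2, 1 to 3, 6 to 10, 1 to 3 and 2 to 9 between LE and GE by day and 9 to 12 over all days, and 29 to 30, 11 to 17, 20 to 23 and 26 to 27 in the conceptus. Of 95 conceptus calls 82 were kept in every such fit.
Neighbouring LE and GE numbers, tried as a replicate block, correlated at -0.07 to 0.19 (median 0.05). Other LE and GE numbers of a day correlated at -0.18 to 0.12 (median -0.01), and same-numbered conceptuses at -0.27 to 0.34. The numbers were not taken to pair libraries, and whether LE and GE libraries share an animal was not tested. With the replicate block 1, 3, 7, 3, 4 and 10 members differed between LE and GE, and 30, 12, 22 and 26 changed in the conceptus.
Signs turned from conceptus day 12 to 14 only. With limma on RPKM, POLA1 was at 1.00, BUB1B at 0.12 and KIF23 at 0.04. With exon reads, which were added after seeing the data, RFC4 and CCNA2 were at -0.05, BUB1 at -0.10, AURKA at -0.02, KIF11 at -0.20 and TPX2 at -0.24. Precision is limited by 4 libraries per group and by few reads behind low genes.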
